A study of Mus musculus with 6 samples.

Results

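Cytosolic ribosomal protein genes encode the proteins of the ribosome that works in the cytoplasm, 1 gene for each protein in most cases. The members were the RefSeq coding entries whose symbol is Rpl or Rps followed by a, p0 to p2, or a number with at most a short suffix, with 1 entry kept per symbol. They numbered 83 of 20275 coding genes, with 32 of the small subunit (Rps) and 51 of the large subunit (Rpl). Their RNA was measured in mouse embryonic fibroblasts (MEFs), primary connective tissue cells taken from wildtype littermate embryos of the strain C57BL/6x 129 at day 13.5 and passaged 4 times. RNA libraries were made from untreated cells and from cells given TNFα, an inflammatory cytokine, at 20 ng/ml and collected after 1.5 hr, 6 hr or 24 hr, and each time had 1 library. All 4 groups were wildtype cells, and the labels do not say whether the libraries came from separate cultures. Trimethylation of histone H3 at lysine 4 (H3K4me3), a mark of active promoters, came from untreated cells only, as 1 library of ChIP-seq beside 1 of input chromatin.

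Ribosomal proteins join ribosomal RNA in the nucleolus to build a small subunit, which reads the mRNA, and a large subunit, which joins amino acids. The proteins are needed in like amounts, and their mRNAs are among the most abundant of growing cells. In vertebrates most of these mRNAs begin with a cytosine followed by an unbroken run of pyrimidines, the terminal oligopyrimidine (TOP) tract, through which the kinase mTOR and the protein LARP1 set how strongly they are translated. Several ribosomal proteins have further roles outside the ribosome, and the genes have left many processed pseudogenes in mammalian genomes.

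The start of the gene is where the TOP tract lies, so 8 members that stand for the main patterns in the RNA data are shown here, each from 40 bases before to 30 bases after its annotated start. The sequences are those of RefSeq on GRCm38.p6, written 5′ to 3′ on the strand of the gene. Capitals mark the longest run of C and T within 50 bases of the start. Where runs tied in length, as in Rps27l and Rpsa, only the first was marked. The first 3 genes were higher than untreated at 1.5 and 24 hr, the next 2 were among the most abundant genes in untreated cells and lower at those times, and the last 3 had ratios near the median of the group at 1.5 hr or somewhat above or below it. The windows are chr2:26910767-26910836 on the plus strand for Rpl7a, chr9:66946046-66946115 on the plus strand for Rps27l, chr17:33955636-33955705 on the minus strand for Rps18, chr7:4792925-4792994 on the plus strand for Rpl28, chr9:120127726-120127795 on the plus strand for Rpsa, chr4:86857338-86857407 on the minus strand for Rps6, chr11:114668540-114668609 on the plus strand for Rpl38 and chr14:18270957-18271026 on the minus strand for Rpl15.
Rpl7a: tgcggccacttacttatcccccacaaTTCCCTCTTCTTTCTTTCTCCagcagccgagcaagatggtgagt
Rps27l: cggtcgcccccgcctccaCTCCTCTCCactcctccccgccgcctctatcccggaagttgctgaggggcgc
Rps18: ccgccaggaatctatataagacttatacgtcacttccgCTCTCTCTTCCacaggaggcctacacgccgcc
Rpl28: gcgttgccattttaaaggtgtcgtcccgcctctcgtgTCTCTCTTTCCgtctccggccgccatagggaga
Rpsa: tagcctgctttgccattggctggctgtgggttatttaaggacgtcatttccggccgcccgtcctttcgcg
Rps6: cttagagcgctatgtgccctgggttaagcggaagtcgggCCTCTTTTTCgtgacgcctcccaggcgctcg
Rpl38: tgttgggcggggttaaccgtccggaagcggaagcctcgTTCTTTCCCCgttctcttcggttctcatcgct
Rpl15: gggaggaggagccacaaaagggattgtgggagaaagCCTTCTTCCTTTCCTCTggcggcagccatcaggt

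Runs of C and T near the start were common among the members. A promoter sequence was at hand for 62 members. Only the first listed start of each gene was used, and counts at the start itself depend on its exact base. A run of at least 8 C or T letters lay within 50 bases of the start in 50 of them (80.6%), against 34.8% of the 14214 coding genes in the same table. The run covered the annotated start itself in 13 members (21.0%, against 2.80% of all promoters), and the tract in its strict form, a C at the start with at least 4 C or T letters after it, was found in 12 (19.4%, against 2.18%). The median longest run was 10 bases in the members and 6 in all promoters, and the longest, of 21 bases, was that of Rpl7a. The run marked for Rpsa, of 7 bases, lies upstream of the window shown, which therefore holds no capitals. A later run of the same length lies within that window in lower case.

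Among the short motifs searched on both strands from 250 bases before to 50 bases after the start, CCGGAAG, the core of the site of ETS factors such as GABP, was in 24 of 62 members (38.7%, against 12.1% of all promoters). The Sp1 letters GGGCGG were in 37 (59.7%, against 49.2%), and the YY1 letters AAGATGGC in 5 (8.06%, against 3.30%). The E-box CACGTG was in 5 members (8.06%, against 8.38%) and the TATA letters TATAAA in 6 (9.68%, against 13%). The pair of κB motifs searched, both sites of NF-κB, were in 0 members, against 0.162% and 0.106% of all promoters. None of these matches is a measured site, and the runs of C and T overlap some of the ETS and Sp1 letters. The log2 ratio to untreated at 1.5 hr had a median of 0.61 over the 50 members with a run of at least 8 and of 0.42 over the 12 without, with wide and overlapping ranges (-1.68 to 2.71 and -1.31 to 1.68). For the 24 members with and the 38 without the ETS letters the medians were 0.87 and 0.50.

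The RNA values are RPKM, read counts divided by transcript length and library size, on a deposited scale that is larger than the usual one by a factor that is not stated, and each library has 2 columns, R1 and R2, whose meaning is not stated. The columns were averaged and were not treated as replicates. With 1 library per time there is no test and no error between replicates, and the reads behind each value are unknown. The untreated library is shared by all ratios given here. Over all coding genes the median log2 ratios to untreated at 1.5, 6 and 24 hr were 0.38, -0.74 and 0.04, so the 6 hr library was lower as a whole. The TNFα targets Ccl2, a chemokine, and Nfkbia, which encodes the NF-κB inhibitor IκBα, were higher at every time, with 187, 18120, 4967 and 13491 for Ccl2 and 319, 7211, 2655 and 5772 for Nfkbia at 0, 1.5, 6 and 24 hr. All 8 fibroblast markers were listed above 0 in all libraries, the sum of 4 endothelial markers never passed 5.04, and the 5 epithelial markers summed to 43.8, 49.5, 21.7 and 25.8, mostly Krt18 (41.1, 45.8, 19.6 and 22.0), with Epcam at 0 throughout. The 6 macrophage or leukocyte markers summed to 3237, 15950, 3027 and 7719, of which Lyz2 made up 2257, 14668, 2692 and 7186. Their sum was highest at 1.5 and 24 hr, as was Lyz2. Of the 6 markers 5 were above untreated at 1.5 hr and 4 at 24 hr. Cd68 and Csf1r were below untreated at 24 hr, with log2 ratios of -0.96 and -1.25. The part of cells with these markers in the members' values was not tested.

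The members were among the most abundant mRNAs in every library. In untreated cells 41 of them were among the 100 highest coding genes and 74 among the 500 highest, and at 1.5, 6 and 24 hr the counts were 46, 35 and 43 and in each case 75. Together they held 22.3% of the summed RPKM of coding genes in untreated cells, 19.7% at 1.5 hr, 19.3% at 6 hr and 20.7% at 24 hr. These shares do not depend on the scaling between libraries. The R1 and R2 columns gave shares that differed by 1.22 to 2.06 percentage points within a library. The share of the large subunit was 14.9%, 12.1%, 12.4% and 12.9%, and that of the small subunit 7.41%, 7.60%, 6.82% and 7.79%. The share of the large subunit was highest in untreated cells and that of the small subunit at 24 hr.

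The level varied widely among genes whose proteins are used in like amounts, and a few genes carried much of the sum. The median member was at 9610 in untreated cells, against 21.4 for the median coding gene. Rpl41, which encodes the smallest protein of the ribosome, was the highest, with 193880 in untreated cells and 117060, 61342 and 109200 at 1.5, 6 and 24 hr. It was followed by Rplp1, an acidic protein of the stalk that recruits translation factors, with 152060, 119220, 88242 and 112500. Rpl28, of the large subunit, had 97824, 41470, 52994 and 37746. In each of these 3 genes the untreated value was the highest of the 4. The 5 highest members held 39.5% of the members' sum in untreated cells and 43.6% at 6 hr, but 23.2% at 1.5 hr and 25.7% at 24 hr. Among the 10 highest coding genes of a library there were 5 members in untreated cells, 2 at 1.5 hr, 6 at 6 hr and 3 at 24 hr.

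**Figure D1:**
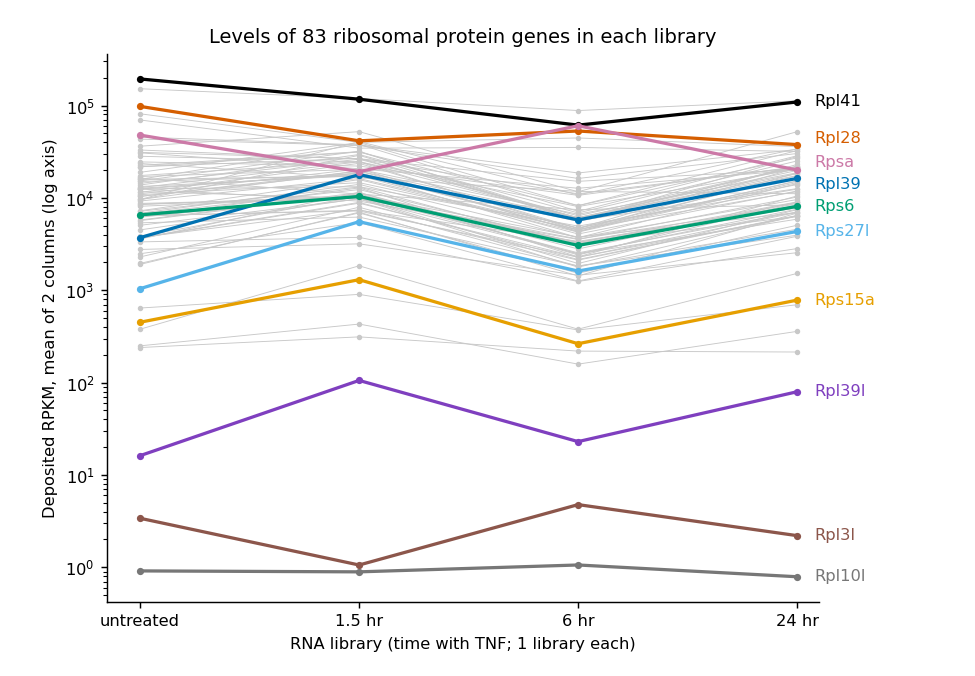
Level of each of the 83 members (deposited RPKM, mean of the 2 columns, log axis) in the 4 RNA libraries, with 10 members coloured and named and the others in grey. Most lines rise a little to 1.5 hr, drop at 6 hr and return by 24 hr, Rpsa runs against them, and Rpl39l, Rpl3l and Rpl10l lie far below the rest.

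TNFα was followed by a modest shift of the group's median that went the same way as the median of all coding genes. The members' log2 ratios to untreated at 1.5, 6 and 24 hr had medians of 0.53, -1.14 and 0.22. Relative to the median of all coding genes these values were 0.15, -0.39 and 0.19. Relative to the 102 other coding genes whose mean level reached the lower quartile of the members, the difference at 6 hr was smaller, since those genes had medians of 0.51, -0.96 and 0.14. Not every member followed the median: 19 of 83 were below untreated at 1.5 hr and 31 at 24 hr. The members' summed level had log2 ratios of 0.085, -1.095 and -0.153, so at 24 hr it was below untreated, unlike the median. In bulk RNA less transcript per cell cannot be told apart from fewer cells that make it.

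At 1.5 hr 25 of 83 members (30.1%) were at least 2-fold higher than untreated, against 28.7% of all coding genes and 33.3% of the other genes at like level (12 or 13 members under the 3 other scalings of the libraries), and 5 (6.02%) were at least 2-fold lower, against 13.8% and 6.86%. At 6 hr 50 members (60.2%) were at least 2-fold lower, against 35.0% of all coding genes and 46.1% of the other genes at like level, and 0 were 2-fold higher, against 3.48% and 0.98%. At 24 hr 10 members (12%) were 2-fold higher, against 16.2% of all coding genes and 23.5% of those at like level, and 5 (6.02%) were 2-fold lower, against 18.7% and 12.7%. The members' share was thus close to or below both backgrounds except for lower values at 6 hr, where it was above them. That count moved with the scaling of the libraries: after they were scaled to the sum of their coding genes 2 members were 2-fold lower and 7 were 2-fold higher at 6 hr. The shares of all coding genes under the other scalings are not given here. The rescaled counts, also those at 1.5 hr, thus have no background and cannot be set against the shares above. Many members lay near the limit, such as Rpl32 at -1.0.

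**Figure D2:**
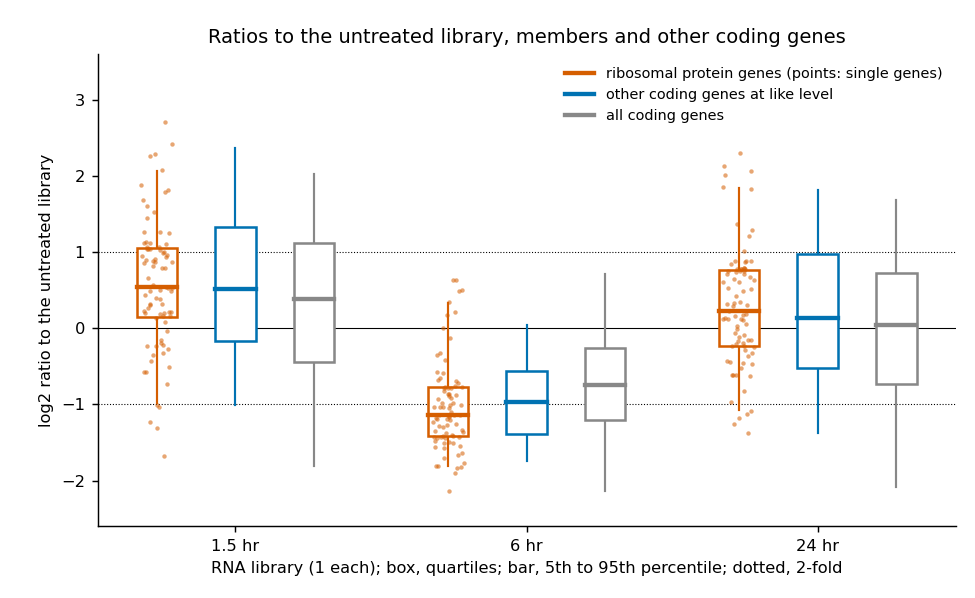
Log2 ratio to the untreated library at 1.5, 6 and 24 hr for the 83 members (orange, with a point per gene), for 102 other coding genes at like level (blue) and for all coding genes (grey), with boxes at the quartiles, bars from the 5th to the 95th percentile and dotted lines at 2-fold. The medians of the members are 0.53, -1.14 and 0.22, close to those of the blue genes (0.51, -0.96 and 0.14), and the members' box is narrower than the other boxes at 1.5 hr.

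The libraries fell into unlike pairs when members were compared gene by gene. Between 1.5 and 24 hr the log2 ratio of the members had a median of -0.32 and an SD of only 0.27 across genes, and 1 of 83 members lay more than 2-fold from that median. Between untreated and 1.5 hr the SD was 0.86, between untreated and 6 hr 0.60, between untreated and 24 hr 0.79, between 1.5 and 6 hr 0.86, and between 6 and 24 hr 0.76. In the 102 other genes at like level the smallest SD was also that of 1.5 against 24 hr, at 0.32, and the other pairs had 0.80 to 1.16. The lowest of the 4 values was that of 6 hr in 70 of 83 members, a larger share than the 68.6% of the 14272 coding genes above 0 in all libraries. The highest was that of 1.5 hr in 62 of 83 members, also a larger share than the 55.8% of those coding genes.

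Small-subunit genes had a median log2 ratio of 0.86, -1.27 and 0.47 at 1.5, 6 and 24 hr, and 13 of 32 (40.6%) were at least 2-fold higher at 1.5 hr, against 28.7% of all coding genes and 33.3% of those at like level. Rps3 encodes a protein at the channel where mRNA enters, which also binds the NF-κB subunit RelA. Its values were 3585, 11468, 2413 and 8790, with log2 ratios of 1.68, -0.57 and 1.29. Rps7 had 1952, 6872, 1527 and 5051, with ratios of 1.82, -0.35 and 1.37. Both genes were at least 2-fold above untreated at 1.5 and 24 hr and below it at 6 hr, and the 2 columns gave the same signs. Rps18, whose promoter window is printed above, had 9549, 28872, 5931 and 22095. Rps2, a protein of the same entry channel, was higher at 1.5 hr (2295 and 7916, a ratio of 1.79), but its columns disagreed at 24 hr, with -0.12 in R1 and 1.67 in R2.

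Rps12, Rps27, Rps29 and Rps26 stayed less than 2-fold from untreated at 1.5 hr and were far lower at 6 hr. Rps12 had 22510, 31636, 6009 and 21509, with a ratio of -1.91 at 6 hr. Rps27 had 28223, 24574, 8051 and 20477, with -1.81, Rps29 had 12700, 18392, 3708 and 14268, with -1.78, and Rps26, which sits at the mRNA exit channel, had 36272, 52133, 11649 and 52037, with -1.64. All 4 were close to untreated again at 24 hr, with ratios from -0.46 to 0.52. Rps6, the substrate of the S6 kinases downstream of mTOR, was near the medians of the group, with 6546, 10365, 3057 and 8100 and ratios of 0.66, -1.10 and 0.31. Rps14, which is lost in a deletion form of myelodysplastic syndrome, had 6248, 12818, 2300 and 10503, with a ratio of 1.04 at 1.5 hr. Rps19, the gene most often mutated in Diamond-Blackfan anemia, had 12504, 13215, 4951 and 12434, and its ratio at 1.5 hr was 0.58 in R1 and -0.32 in R2. The X-linked Rps4x had 10387, 18734, 4726 and 13942, with a ratio of 0.85 at 1.5 hr.

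Rpsa, whose protein is part of the small subunit and is also known as the laminin receptor, ran against the group at each time. Its values were 47836, 19234, 60398 and 20031, so that the untreated and 6 hr libraries were high and the 1.5 and 24 hr libraries low. The log2 ratios were -1.31, 0.34 and -1.26, and R1 and R2 gave -1.46 and -1.14 at 1.5 hr, 0.43 and 0.19 at 6 hr and -1.39 and -1.09 at 24 hr. It ranked 6 among the members in untreated cells and 3 at 6 hr. Rps15, at the decoding side of the small subunit, had 81388, 39861, 44549 and 35935, with ratios of -1.03, -0.87 and -1.18.

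Large-subunit genes had a median log2 ratio of 0.39, -1.04 and 0.12, and 12 of 51 (23.5%) were at least 2-fold higher at 1.5 hr, against 28.7% of all coding genes. Rpl39, a small protein that lines the exit tunnel, had 3713, 17842, 5772 and 16242, with ratios of 2.26, 0.64 and 2.13. Rpl23a, at the mouth of that tunnel, had 9610, 40638, 10781 and 33967, with ratios of 2.08, 0.17 and 1.82. These were among the few members not below untreated at 6 hr, although the columns of Rpl23a disagreed in sign there. Rpl7a had 379, 1838, 379 and 1521, with ratios of 2.28, 0.00 and 2.01. Rpl27 had 1904, 7003, 1429 and 6847, with ratios of 1.88, -0.41 and 1.85. The 4 genes were at least 2-fold above untreated at 1.5 and 24 hr, and none was past 2-fold at 6 hr.

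Rpl28 and Rpl41, both among the most abundant large-subunit genes, went the other way at 1.5 and 24 hr. Rpl28 had log2 ratios of -1.24, -0.88 and -1.37 at 1.5, 6 and 24 hr and was thus below untreated at all 3 times. Rpl41 had ratios of -0.73, -1.66 and -0.83. The next genes were less abundant in untreated cells and stood out at 6 hr. Rpl37 had the lowest ratio of any member at 6 hr, with 8562, 9944, 1947 and 7449 and a ratio of -2.14. Rpl26, which also binds the p53 mRNA, had 21735, 26795, 6083 and 18279, with -1.84 at 6 hr. Rpl37a, Rpl29 and Rpl31 were at -1.83, -1.81 and -1.71 at that time. Rpl37, Rpl26, Rpl37a, Rpl29 and Rpl31 all lay between -0.44 and 0.39 at 1.5 hr, and the columns of each had the same sign at 6 hr.

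The 3 stalk genes did not move as a unit. Rplp0, the base of the stalk, had 21712, 31347, 8242 and 27113, with ratios of 0.53, -1.40 and 0.32, which is near the median of the group. Rplp2 had 15819, 17291, 5677 and 12601, with ratios of 0.13, -1.48 and -0.33. Rplp1 was below untreated at each time, with ratios of -0.35, -0.79 and -0.43. In untreated cells Rplp1 was 152060 against 21712 and 15819 for its partners.

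Among members with roles outside the ribosome, Rpl5 and Rpl11 encode proteins that bind Mdm2 and so hold back the breakdown of p53. Rpl5 had 6184, 10707, 3768 and 6914, with ratios of 0.79, -0.71 and 0.16, and Rpl11 had 9616, 19577, 4352 and 15287, with 1.03, -1.14 and 0.67. Rpl13a, whose protein is released from the ribosome in interferon-treated myeloid cells to silence inflammatory mRNAs, had 31096, 26536, 15113 and 20259. It was below untreated at all 3 times, with ratios of -0.23, -1.04 and -0.62. Rpl38, which is needed for translation of Hox mRNAs in the embryo, had 24516, 22102, 10645 and 21754. Rps27a, made as a fusion with ubiquitin, had 8710, 9946, 3211 and 6313, with ratios of 0.19, -1.44 and -0.46.

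A gene of a further fused protein and a near copy of a member do not match the symbol rule and were looked at beside it. Fau, which joins a ubiquitin-like protein to a small-subunit protein, had 20045, 12756, 9773 and 13156, with ratios of -0.65, -1.04 and -0.61. Rpl36al had 7859, 7148, 3011 and 5356, with ratios of -0.14, -1.38 and -0.55. Both were at least 2-fold lower at 6 hr and neither was past 2-fold at the other times.

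**Figure D3:**
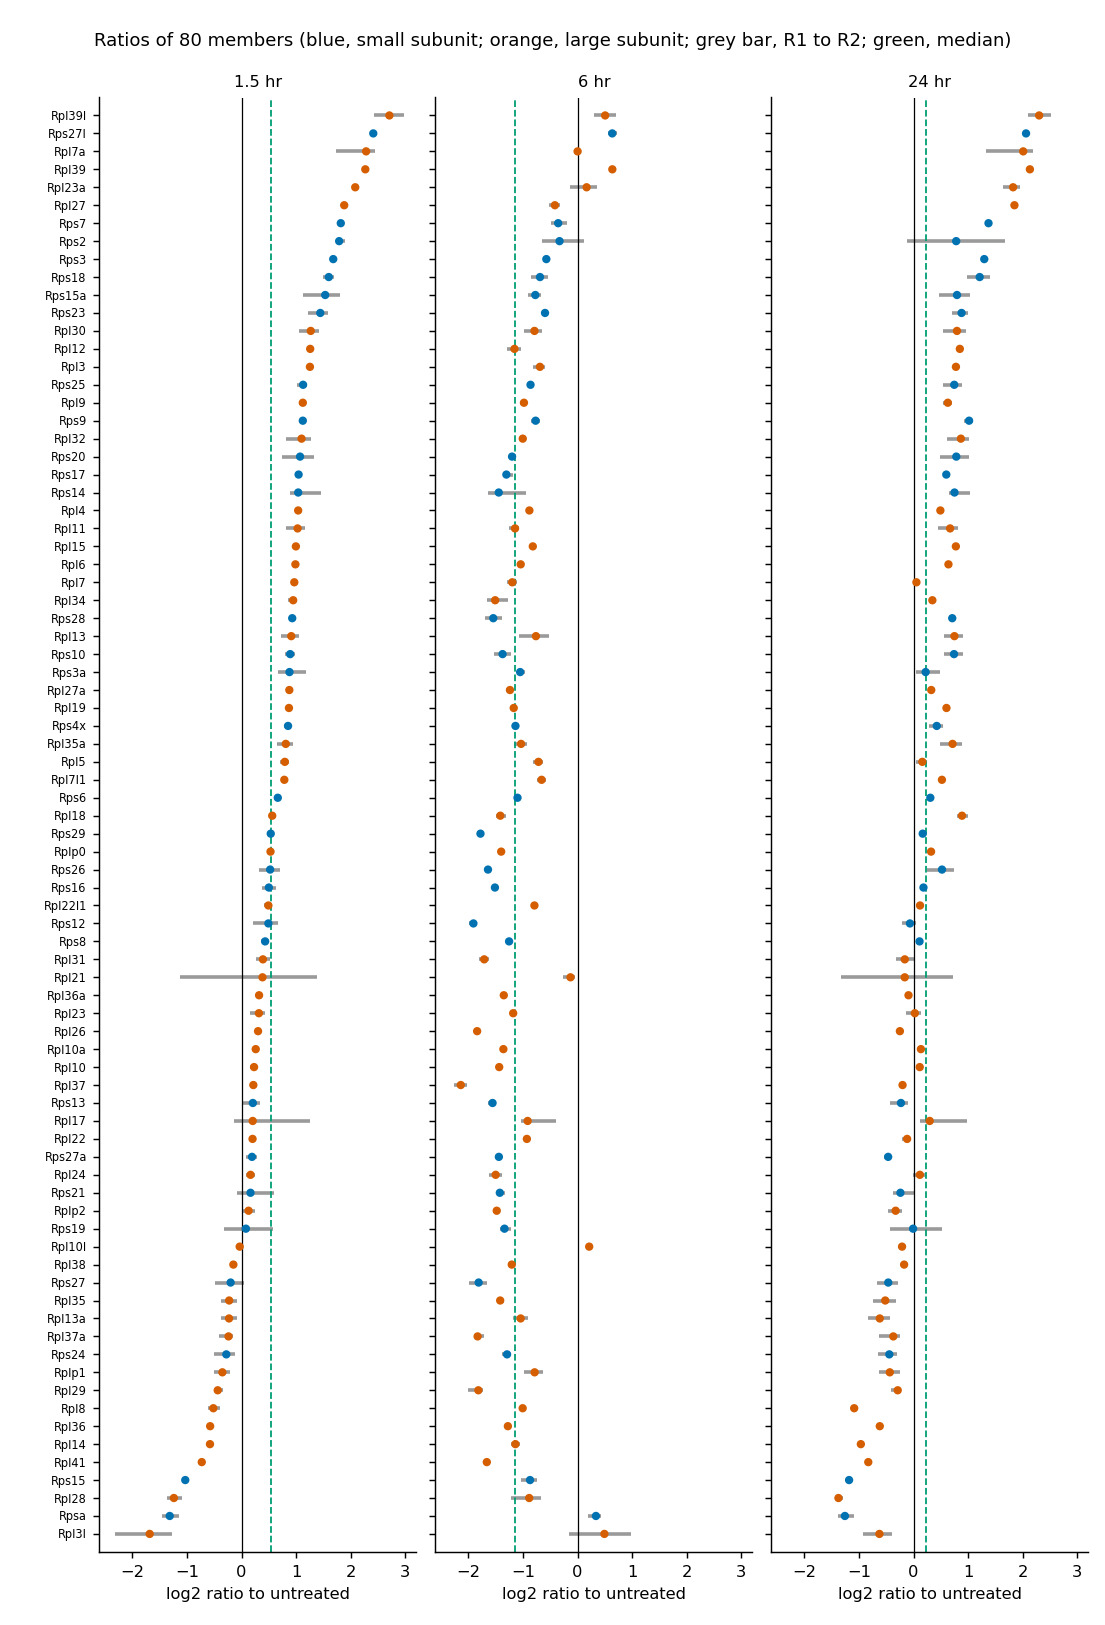
Log2 ratio to the untreated library of 80 members at 1.5, 6 and 24 hr (x axes), in the order of the 1.5 hr ratio, with blue points for the small and orange points for the large subunit, grey bars from the R1 to the R2 ratio and a green dashed line at the median of all members at each time. At 6 hr 72 of those drawn lie below 0 and 8 above it, and Rpl21, Rpl17 and Rps2 have the long bars, where the columns differ.

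Of the 6 paralogs whose symbol ends in l or l1, those known from particular tissues were the lowest members, and Rps27l was the highest. Rpl3l, known from heart and skeletal muscle, had 3.39, 1.06, 4.77 and 2.20, against 3678, 8757, 2283 and 6296 for Rpl3. Rpl10l, a testis copy of the X-linked Rpl10, lay between 0.79 and 1.06, and its R1 value in untreated cells was listed at 0. Rpl39l, another testis paralog, had 16.2, 105, 23.0 and 79.6, with ratios of 2.71, 0.51 and 2.30 that stood next to those of Rpl39. Rpl39l made up 0.434%, 0.588%, 0.396% and 0.487% of the sum of the pair, so the make-up of this pair differed little between libraries.

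Rps27l, a target of p53, had 1039, 5525, 1614 and 4329, with ratios of 2.41, 0.63 and 2.06, whereas its partner Rps27 had ratios of -0.20, -1.81 and -0.46. The share of Rps27l in the pair was 3.55% in untreated cells and 18.4%, 16.7% and 17.5% at 1.5, 6 and 24 hr. The 3 treated libraries were thus alike in this share and stood above the untreated one. Of the 50-base sequences of the mRNAs, 17.1% of those of Rps27l but 99.7% of those of Rps27 occur elsewhere in the genome. For Rpl22 and Rpl22l1 the share of the paralog was 18.8%, 22.1%, 20.3% and 21.5%, and for Rpl7 and Rpl7l1 4.22%, 3.74%, 6.01% and 5.74%.

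The spread among members went along with their base composition and level. Across the 82 members with a transcript in the annotation, the log2 ratio at 1.5 hr had a Spearman's rho of -0.32 and a Pearson's r of -0.36 with GC content. In the third of members with the lowest GC content (41.3% to 49.5%) the median ratio at 1.5, 6 and 24 hr was 0.86, -0.92 and 0.47, and in the third with the highest (53.1% to 60.9%) it was 0.26, -1.17 and -0.16. The other genes at like level showed a rho of -0.54 with GC content at 1.5 hr (94 genes). With the mean level over the 4 libraries the members' ratio at 1.5 hr had a rho of -0.37 (83 genes), against -0.06 in the 102 other genes. With the untreated level, which is also the divisor of the ratio, the rho was -0.57 in the members and -0.67 in the other genes. The other genes all reach the lower quartile of the members, so they leave out the levels of the lowest members. The points of each of these relations share the same pair of libraries, and the part of base composition in the ratios was not tested. When each gene was set against coding genes of like GC content in 20 bins, the SD of the members' ratio went from 0.86 to 0.80 at 1.5 hr and remained 0.60 at 6 hr.

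Sequence shared with other places in the genome touches most members. The median member shared 64.5% of its 50-base sequences with another locus of mm9, 53 of 82 shared more than 50%, and 3 shared none, among them Rpl39l and Rpl3l. How the authors treated reads that match several places is not stated, so the values of highly shared genes are uncertain. Rpl7a shared 93.1% with 128 other loci. Members above 50% had a median ratio of 0.53, -1.14 and 0.30, and the 29 at or below 50% had 0.56, -1.04 and 0.16. This split depends on the transcript taken for each gene: at 1.5 hr the less shared members had a median of 0.39 with the longest coding transcript and 0.78 with the lowest-numbered one. Rps3, which shared 3.44%, was at least 2-fold higher at 1.5 hr, and Rpl8, which shared 7.87% and had 23565, 16481, 11749 and 11099, was lower at all 3 times.

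The R1 and R2 columns differed more for the members than for other genes. The median absolute log2 difference between the columns was 0.24, 0.31, 0.34 and 0.33 over the members in the 4 libraries, against 0.08, 0.10, 0.15 and 0.11 over the 102 other genes at like level. For some members the difference kept its direction in every library. Rpl17 had 10610 in R1 and 2140 in R2 in untreated cells, and its log2 difference of R2 over R1 was -2.31, -0.93, -1.67 and -1.45. Rps14 had 2861 and 9634, with differences of 1.75, 1.18, 1.07 and 1.37, and Rpl7a 203 and 555, with 1.45, 2.15, 1.49 and 2.31. For Rpl21 it changed sign, from -0.62 to 1.88, -0.85 and 1.45. Its ratio at 1.5 hr was -1.12 in R1 and 1.38 in R2, and no direction can be read from it. Of the 82 members above 0 in both untreated columns, 77 had ratios of the same sign in R1 and R2 at 1.5 hr, 78 at 6 hr and 74 at 24 hr.

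**Figure D4:**
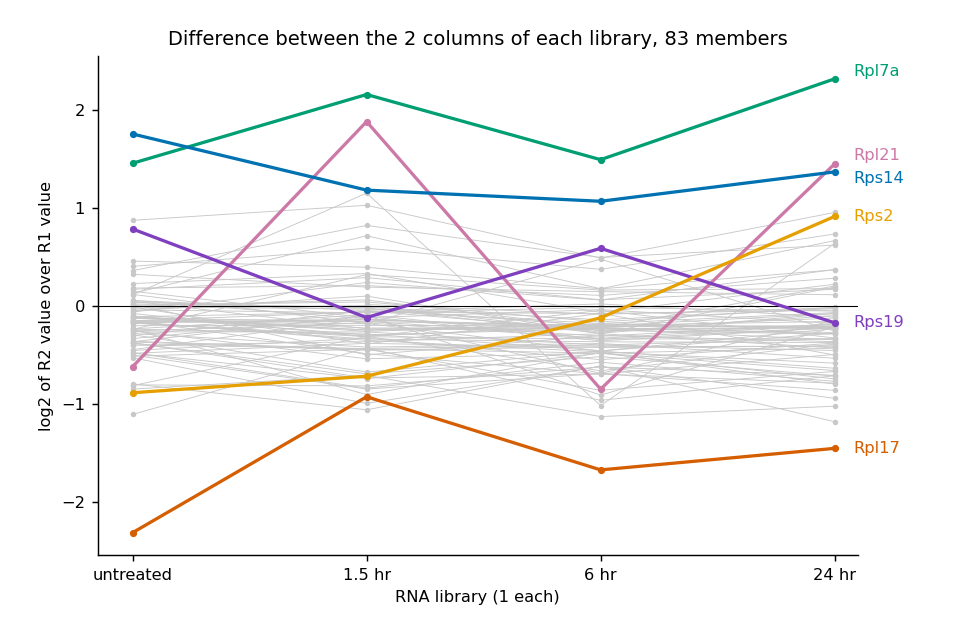
Log2 of the R2 over the R1 value for each member in the 4 libraries, with 6 members named and the others in grey. Rpl7a and Rps14 stay above 1 and Rpl17 below -0.9 in all libraries, Rpl21 changes sign from library to library, and most members lie slightly below 0.

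Noncoding entries that derive from members were listed beside their parents. Rps15a had 450, 1301, 264 and 781, with ratios of 1.53, -0.77 and 0.80. Gm13253, a pseudogene of Rps15a named Lethe in the study, had 1395, 7844, 902 and 4232, with ratios of 2.49, -0.63 and 1.60. It was thus above its parent in every library, by 1.63, 2.59, 1.78 and 2.44 on the log2 scale, and 50.1% of the 50-base sequences of Rps15a recur at 9 other loci. Rps19-ps3 had 5771, 8412, 3100 and 8601, below Rps19 in each library, and Rps4y2 had 499, 1008, 181 and 634, below Rps4x, with log2 values over that gene from -4.71 to -4.22.

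Other genes that work with the ribosome or set the levels of its proteins were looked at in fixed lists. The shares of all coding genes to set beside their counts were 28.7% higher and 13.8% lower at 1.5 hr, 3.48% and 35.0% at 6 hr, and 16.2% and 18.7% at 24 hr. Of 17 other genes with TOP mRNAs, such as elongation factors, 11 (64.7%) were at least 2-fold higher at 1.5 hr and 8 (47.1%) at 24 hr, and 4 (23.5%) were 2-fold lower at 6 hr, with median ratios of 1.36, -0.29 and 0.82. Gnb2l1, which encodes the small-subunit scaffold Rack1, had 4073, 21509, 3630 and 14331. The poly(A)-binding protein gene Pabpc1 had 892, 3554, 1168 and 4162, and Eif3e, of the initiation complex, 258, 1302, 428 and 1157, and these were above untreated at all 3 times. Eef1d was near untreated at 1.5 hr, with 2288 and 2488, Hnrnpa1 was at -0.35 at 24 hr, and Eif3f was the lowest of the list at 6 hr, with -1.46.

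Of 29 ribosome assembly genes 12 (41.4%) were 2-fold higher and 1 was 2-fold lower at 1.5 hr, where 28.7% and 13.8% of all coding genes were, 1 was higher and 3 were lower at 6 hr, and 4 were higher and 2 lower at 24 hr, with medians of 0.83, -0.34 and 0.38. Dkc1, the pseudouridine synthase of rRNA, had 55.7, 139, 150 and 169, and Nop10 of the same particle had 394, 1356, 325 and 1023. Gar1, a further part of that particle, was at -1.52 at 6 hr. Bysl, a factor of small-subunit assembly, was lower throughout, with 821, 355, 396 and 331.

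Of 16 regulators of ribosomal protein genes 8 (50%, against 28.7% of all coding genes) were 2-fold higher at 1.5 hr and none lower. At 6 hr 1 was higher and 1 lower, and at 24 hr 6 (37.5%, against 16.2%) were higher and 1 lower, with medians of 0.97, -0.30 and 0.67. The 1 higher at 6 hr was Mycn, also counted at 1.5 and 24 hr, with low values of 0.55, 2.64, 1.90 and 2.17. Myc had 133, 426, 204 and 326, the elongation factor gene Tcea1 105, 381, 123 and 211, and Trp53, which encodes p53, 425, 1180, 574 and 1124. Rps6kb2, an S6 kinase, had 532, 270, 315 and 236, and Eif4ebp1, a translation repressor under mTOR, was at -1.18 at 6 hr. The 76 mitochondrial ribosomal protein genes had medians of 0.86, -0.72 and 0.73, and 32 (42.1%, against 28.7%) were 2-fold higher at 1.5 hr and 24 (31.6%, against 16.2%) at 24 hr. Mrps33 and Mrps31 had the highest ratios at 1.5 and 24 hr, with 2.51 and 1.94, Mrpl32 the highest at 6 hr, with 0.85, Mrps16 the lowest at 6 hr, with -1.81, and Mrpl48 the lowest at 1.5 and 24 hr, with -1.06 and -1.45.

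In untreated MEFs nearly all member promoters carried H3K4me3. Of the 82 members with an annotated start, 79 (96.3%) had a peak within 1 kb, and in each the peak covered the start. The share was 52.2% over all coding genes and 92.6% over the other genes at like RNA level. The 3 without a peak there were Rpl3l, Rpl10l and Rpl39l, the 3 members with the lowest RNA levels. The starts are those of the GENCODE annotation of mm9, with the start nearest to a peak used among coding transcripts that begin within 1 kb of the lowest-numbered one, and Rpl41 had no entry in it.

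The peaks were long and reached into the genes. The median member peak was 4427 bases long (quartiles 3891 and 5240), against 3368 for other coding genes with a peak and 5237 for those at like RNA level. It held a median of 1761 tags, against 1154 and 1864, and its fold enrichment over background was 65.3, against 47.7 and 52.9. The median peak began 1182 bases before the start and ended 3177 bases after it. The summit was downstream of the start in 75 of 79 members, at a median of 256 bases, and upstream in Rps25, Rps15a, Rps15 and Rpl15. Fold enrichment ranged from 28.8 at Rpl36a to 152 at Rps6.

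Rps6 lies at chr4:86500564-86503316 on the minus strand of mm9, and its peak, at chr4:86500722-86504860 with 1760 tags, spans its start and most of its body. The peak of Rpl23a extended farthest into and past a gene, 7762 bases from the start, and that of Rpl29 was the shortest, with 2607 bases and 1452 tags. Rps15a had a peak of 7295 bases with 2449 tags. Across the 79 members the Spearman's rho of fold enrichment was -0.17 with the untreated RNA level and -0.00 with the RNA ratio at 1.5 hr, as a description over genes of the same libraries. With 1 ChIP library the peaks have no replicate.

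**Figure D5:**
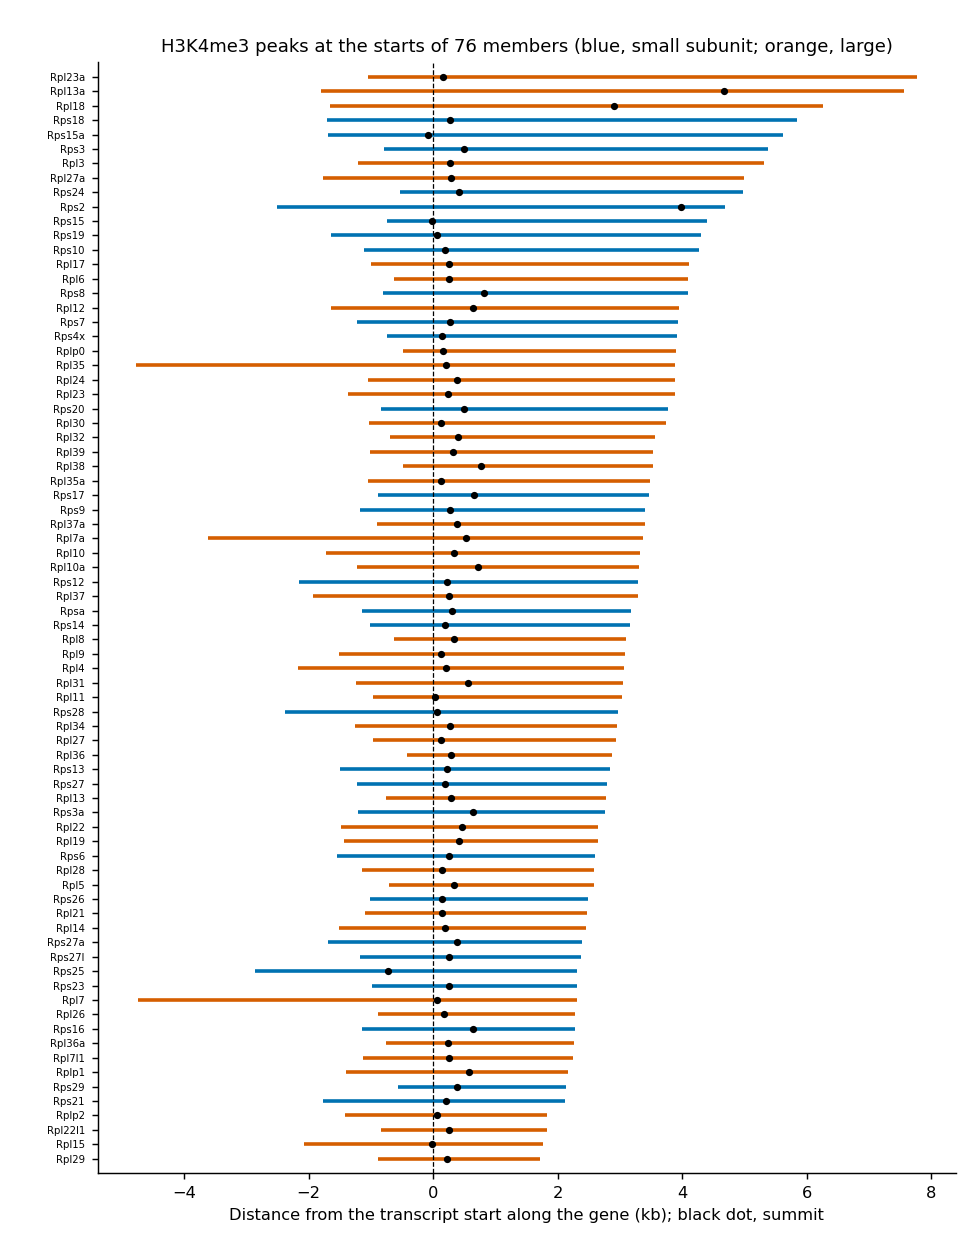
Extent of the H3K4me3 peak at 76 members with a peak within 1 kb of the start, along the direction of the gene (x axis in kb, 0 at the transcript start), with blue bars for the small and orange bars for the large subunit and black dots at the summits. All bars cross the start, most reach 2 to 4 kb past it, and the summits lie mostly within 1 kb downstream of it.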

How the data were processed

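RNA was measured in 4 MEF libraries (0, 1.5, 6 and 24 hr of TNFα) and H3K4me3 in 1 ChIP library against 1 input. The authors mapped paired-end directional reads to mm9 with TopHat and deposited RPKM per RefSeq transcript, 2 columns per library, on an unstated larger scale. How multiply mapped reads were handled is not given in the sources used here. ChIP reads were mapped by the authors with Bowtie, and MACS was their peak caller. The deposited list gives a tag count, a score from the p-value, a fold enrichment ratio, an FDR in percent and a coverage signal of tags per base, of which the tag count and the fold were used. The library times were matched to columns through the study's list of libraries. The label of the 24 hr library holds a ChIP protocol in a field, while its title, treatment and source are those of RNA.

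From the 27794 entries 25684 coding ones were kept, with 1 per symbol, and R1 and R2 were averaged. Log2 ratios used no pseudocount, and genes at 0 were left out of ratios. Counts used 2-fold. Libraries were not rescaled. No test was possible with 1 library per time. Positions and GC content came from GENCODE vM1 on mm9, promoter sequences from RefSeq on GRCm38.p6, with coding transcripts kept where they begin within 1 kb of the lowest-numbered one, since a neighbouring gene's transcript is listed under Rpl24, a rule set after the values were seen. Shared sequence came from exact 50-base matches on both strands of mm9, a length chosen here. The ratios were tested on simulated data. Named genes were those past 2-fold (up to 10 a time), those at the ends of the levels and ratios, and fixed lists of roles and paralogs. Rpl8, Rpl15, Rpl17, Rpl18, Rpl21, Rpl24, Rpl32, Rpl36a, Rps18, Rps25 and Mycn lie outside this rule and were picked once their values were known. The members and lists were chosen with earlier results of these data known. Python 3.11.15, numpy 2.4.6 and pandas 2.3.3 were used. Some genes are not reported here by name.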

Additional observations from a re-analysis of the deposited data

Results flagged for a closer look

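The median of the ribosomal protein genes lay on opposite sides of untreated at different times. Their log2 ratios had a median of 0.53 at 1.5 hr against -1.14 at 6 hr. With 1 library per time this difference was not tested, and the median of all coding genes had the same signs. Rpsa was on the other side of untreated from the median of the group each time, with log2 ratios of -1.31, 0.34 and -1.26 at 1.5, 6 and 24 hr, and this difference was not tested either.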

How the results depend on the processing

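Of 202 alternative values 142 moved by less than the difference between the R1 and R2 columns or, for counts, by at most 1.5 times. Scaled to the sum of coding genes, by median of ratios and by trimmed mean of log ratios, the members' median log2 ratio was 0.27, 0.10 and 0.15 at 1.5 hr and -0.25, -0.33 and -0.40 at 6 hr. The members 2-fold higher then numbered 13, 12 and 12 at 1.5 hr and 7, 6 and 5 at 6 hr. Those 2-fold lower numbered 2, 6 and 7 at 6 hr, and 8 at 1.5 hr by median of ratios. These scalings remove the shift of the whole library. The shares of all coding genes under them are not given here, so the rescaled counts have no background.

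The result without members that share over 50% of their sequence depends on the transcript taken for each gene. With the longest coding transcript at any start, the median at 1.5 hr was 0.35 and its difference from all coding genes reversed, from 0.15 to -0.026. That value counts Rpl41, which has no sequence in the annotation, as less shared, and a neighbouring gene's transcript as that of Rpl24, and it was 0.011 without Rpl41. With transcripts that begin near the lowest-numbered one the difference was 0.096 with and 0.18 without Rpl41, and with the lowest-numbered transcript alone the median was 0.78 and the difference 0.40. The model of Rpl18 changed as well, from 85.1% to 18.2% shared, and no choice among these was tested. In these smaller sets 11 or 13 were higher at 1.5 hr and 5 at 24 hr, 2 were lower at 1.5 and 24 hr, and 17, 18 or 19 at 6 hr. These counts are out of fewer genes than the 83 members. Without Rpl41 there were 29 with transcripts near the lowest-numbered one and 35 with the lowest-numbered one alone. Against coding genes at the members' level, the members included, the difference at 6 hr was -0.061, and with the members left out -0.17, where it was -0.39 against all coding genes. At 1.5-fold 40, 2 and 32 members were higher at 1.5, 6 and 24 hr and 11 lower at 24 hr. At 3-fold 10 were higher at 1.5 hr and 6 at 24 hr, and 1, 10 and 0 were lower at 1.5, 6 and 24 hr. The shares of all coding genes at 1.5-fold and 3-fold are not given here, so these counts have no background. The members' share of the sum in untreated cells was 20.9% over all entries. Without the 10 highest coding genes of each library it was 16.1% in untreated cells, 11.6% at 6 hr and 18.6% at 24 hr.

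The background matched on GC content, the one without the members and the choices of transcript were added after seeing the data. No paired analysis was possible because each time had 1 library and the labels give no replicate numbers, and no library was left out, since each was the whole of its group. The reads behind each RPKM are unknown, and the low values of Rpl10l and Rpl3l carry no counting error.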
